A study of Mus musculus with 43 samples.

Results

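CD4 T cells that had met their antigen at an intermediate dose for 30 days were compared with cells held at the same dose for 10 days. The comparison was defined by the sample titles alone, which gave 5 arrays of the intermediate dose (int) on day 30 and 4 on day 10, 9 of the 43 arrays of the series. Each of 22180 genes was represented by 1 probe set, the one with the highest mean over all arrays among probe sets that carried a single gene symbol.

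A T cell receptor that keeps binding its peptide drives the same signals that start a response, and in chronic infection, in tumours or towards self antigen it holds T cells in an altered state. CD4 T cells in that state are known for inhibitory receptors such as PD-1 and LAG-3, for transcription factors such as TOX, Eomes and IRF4, for loss of the IL-7 receptor, and for limited cytokine output. Whether such a program deepens, fades or is held at a plateau while antigen persists is the question that a late and an early time point at a constant dose address.

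All cells were CD4 T cells of AND T cell receptor transgenic mice, which lacked Rag2 and bore CD45.1, and which recognize a moth cytochrome c (MCC) peptide. They were transferred into iMCC recipients, whose 2 transgenes let dendritic cells make an invariant chain that carries this peptide while doxycycline is in the drinking water. On the day before transfer each recipient received an antibody to CD40, which activates dendritic cells, and doxycycline at 100 µg/ml. From day 3 the int group stayed at 100 µg/ml, the low group received 10 µg/ml and the none group 0 µg/ml, so the none cells were primed and then left without antigen. On each day there were 5 none arrays and 5 low arrays. The donor cells were recovered by sorting for CD45.1, CD90.2 and CD4. The day 30 cells came from a separate series of sorts, so in the int comparison the day cannot be told apart from the sort series. The none and low groups span the same pair of sort series and were used for the part of the shift that all groups share. Whether samples of a group were separate animals is not said in the labels, and the p-values therefore rest on a spread among samples that may be technical.

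Values are log2 signals per probe set, so a difference of 1 is a 2-fold change, and the arrays cannot tell fewer cells of a kind from less RNA per cell. In the 9 int arrays the markers of the sort were high, with Cd4 at 9.32 to 9.99, Cd3e at 10.83 to 11.46, Thy1 (CD90) at 10.49 to 11.13 and Ptprc (CD45) at 10.87 to 11.42, while Rag2 read 2.49 to 2.83. Over 6069 genes with a mean of at least 5, pairs of int arrays correlated at 0.938 to 0.955 within day 10, at 0.925 to 0.939 within day 30 and at 0.899 to 0.937 between days. Lists of markers of other cell types had low mean levels, with ranges that overlapped between the days. The mean level of 14 B cell markers was 3.23 to 3.39 on day 10 and 3.22 to 3.35 on day 30, that of 28 myeloid markers 3.47 to 3.73 and 3.55 to 3.72, and that of 7 erythroid and platelet markers 2.84 to 2.99 and 2.89 to 3.08. The 7 markers of NK cells and of CD8 or gamma-delta T cells lay at 4.06 to 4.51 and 3.92 to 4.28. Not a single one of these 56 markers was called between the int days. With 0.712% of all genes called, 0 calls among so few markers say little. Single markers did differ without overlap of the int arrays, 1 myeloid marker higher and 1 lower on day 30, and 1 of the last list lower. The NK cell marker Klrb1c stood at -1 (adjusted p = 0.0939 in limma) and was called in some other settings (lowest adjusted p = 0.0255).

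Between day 10 and day 30 few genes were called in the int cells (0.712% of those tested). Among them was no member of the lists of 19 inhibitory receptors and 20 chronic stimulation factors. At so low a share, 0 calls in lists this short say little about their members. Fewer transcripts were present on day 30 of the signal-transducing receptor chain Il6st, the pro-death gene Bcl2l11, the ubiquitin ligase Cblb, the stress regulator Ddit4 and the cytokine Ltb. Transcripts of the inducible heat-shock proteins Hspa1a and Hspa1b, of the protease gene Gzmk and of S100a4 and S100a13 were more abundant. The calls of Hspa1a, Hspa1b, Gzmk and S100a4 ended when only the int groups were fitted. In limma, with Benjamini-Hochberg adjusted p under 0.05, 158 genes were called (0.712% of those tested), 77 higher on day 30 (0.347%) and 81 lower (0.365%), and 57 of them differed by at least 2-fold (23 higher, 34 lower). With quantile normalization the call count was 226 (139 higher, 87 lower), and with each array centred on its median it was 113 (42 higher, 71 lower). At an unadjusted p under 0.05 there were 2525 genes. The arrays of the 2 days did not overlap in 1080 genes (4.87%), 510 with day 30 above day 10 (2.3%) and 570 with day 30 below (2.57%). Leaving out int arrays in turn gave 71 calls without day 10 array 3, 75 without day 10 array 1, 97 without day 30 array 3, and 106 to 145 without each of the others. Of the 158 genes, 35 kept their call in all 9 of these fits, 14 higher and 21 lower.

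The none cells, sorted on the same days, changed in more genes. In them 761 were called (3.43%), 334 higher (1.51%) and 427 lower (1.93%), against 303 and 244 with quantile normalization and 243 and 421 with centring. In the low cells 636 were called (2.87%), 192 higher (0.866%) and 444 lower (2%), against 206 and 179 with quantile normalization and 113 and 585 with centring. Without day 10 none array 1, 2, 3 or 5 the none count was 366, 446, 403 or 463. The low count was 339, 297 or 281 without day 10 low array 1, 2 or 3 and 407 without day 30 low array 4. The int group had 4 arrays on day 10, and the median SE was 0.18 for int and 0.17 for both others. All groups shared the same estimate of spread per gene. These SEs therefore follow from the group sizes and do not compare the spread of the int arrays with the others. Of the 158 int calls, 52 were also called in none, which is 32.9% of the int list and 6.83% of the none list, and 51 of these had the same direction. With low, 46 were shared (29.1% of the int list and 7.23% of the low list), 45 in the same direction. Calls in all 3 numbered 30, and 90 int calls were made in neither none nor low. The 77 genes that were higher in int had a median log2 fold change of 0.79 in int, 0.43 in none and 0.36 in low. For the 81 lower genes the medians were -0.95, -0.28 and -0.44. Across all genes the int change correlated with the none change at r = 0.37 and with the low change at r = 0.41, a description over genes that share the sort series.

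**Figure D1:**
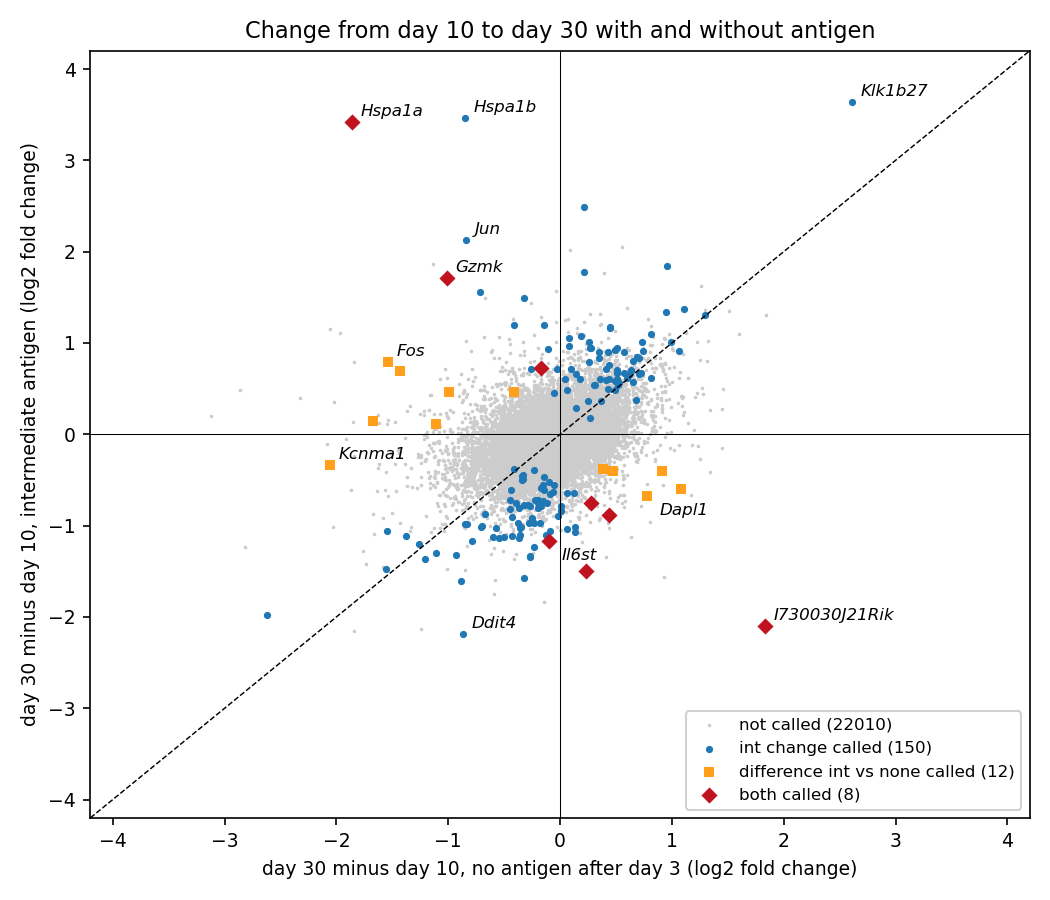
Log2 fold change from day 10 to day 30 of each of 22180 genes in none cells (horizontal axis) and int cells (vertical axis), with genes called in int (blue), genes called for the difference of the 2 changes (orange squares) and genes called in both (red diamonds); the dashed line marks equal change. Klk1b27 lies far up in both groups, while Hspa1a, Hspa1b and Gzmk lie above 1.5 in int and below 0 in none.

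The called gene with the largest fold change in int cells was called in none and low cells too. Klk1b27, annotated as a kallikrein serine protease, read 3.09, 2.52, 5.19 and 3.71 on the 4 day 10 arrays and 6.88, 7.82, 8.76, 6.54 and 6.33 on the 5 day 30 arrays. No day 30 array fell to the day 10 range, and the log2 fold change was 3.64 ± 0.50 (SE, adjusted p = 3.34e-05 in limma). Klk1b27 was also higher on day 30 in none (2.61 ± 0.47, adjusted p = 0.00114) and in low cells (2.51 ± 0.47, adjusted p = 0.00155). The kallikrein 1b genes are near-identical copies, so which of them the probe set measured is uncertain. Fbxw5, a substrate adaptor of a ubiquitin ligase, was likewise higher in int (1.31 ± 0.25), none (1.30) and low cells (0.88), but not with the mean of all its probe sets (adjusted p = 0.432 in int). Mlf2 was lower in all 3 (-1.37 ± 0.25, -1.21 and -0.96).

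The inducible HSP70 genes Hspa1a and Hspa1b, which encode a chaperone made when proteins are damaged, gave the next largest values and are shown first by their promoters. They are neighbours on chromosome 17, and their start regions are nearly the same. Each line gives 250 bases before the annotated start, 5′ to 3′ on the minus strand of GRCm38.p6 from RefSeq, for Hspa1a chr17:34972157-34972406 and for Hspa1b chr17:34959239-34959488. Capitals mark the only match to GAANNTTC, the core of the heat shock element that heat shock factor binds, which reads the same on both strands.
Hspa1a: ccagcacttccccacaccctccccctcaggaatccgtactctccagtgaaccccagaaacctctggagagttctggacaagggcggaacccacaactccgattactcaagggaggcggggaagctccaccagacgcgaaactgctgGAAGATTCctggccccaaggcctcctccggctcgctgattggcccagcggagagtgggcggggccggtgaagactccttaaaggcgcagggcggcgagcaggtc
Hspa1b: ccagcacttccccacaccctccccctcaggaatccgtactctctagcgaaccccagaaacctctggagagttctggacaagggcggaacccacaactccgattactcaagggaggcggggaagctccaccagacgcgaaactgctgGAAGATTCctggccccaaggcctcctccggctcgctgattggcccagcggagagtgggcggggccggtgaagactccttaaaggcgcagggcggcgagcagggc
The windows differ at 3 of 250 bases. In both, the match starts 104 bases before the start site. A match was present in 2199 of 32851 promoter windows of this length (6.69%), and the motif was chosen after the values were seen. Because the genes are near-identical copies, their probe sets may each take up signal of the other.

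Hspa1a read 2.61, 2.57, 3.11 and 2.91 on day 10 and 7.48, 7.80, 6.81, 2.54 and 6.49 on day 30. Of the 5 day 30 arrays 4 stood far above all day 10 arrays, and array 4 stood with the day 10 arrays. The log2 fold change was 3.42 ± 0.67 (adjusted p = 0.00494 in limma), and it lay between 3.03 and 4.34 with each int array left out, the call holding each time. Hspa1b read 3.51, 4.07, 2.95 and 3.51 against 7.86, 9.21, 8.16, 3.37 and 6.27, again with array 4 alone at the day 10 level (3.46 ± 0.73, adjusted p = 0.0105). Its call ended without day 10 array 3 (adjusted p = 0.0528). Fitted on the int groups alone, neither was called (adjusted p = 0.0594 for Hspa1a and 0.0774 for Hspa1b).

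On day 10 the int cells were the lowest of the 3 groups in both genes. On that day Hspa1a read 4.22 to 7.22 in none and 4.59 to 6.81 in low cells, all above the 4 int arrays. On day 30 it read 2.92 to 5.20 in none cells, below 4 of the 5 int arrays (int minus none 2.19 ± 0.63, adjusted p = 0.0518), and 6.39 to 8.97 in low cells. Hspa1b read 5.50 to 8.01 in none and 6.30 to 7.65 in low cells on day 10, again above all int arrays, and 3.72 to 8.10 and 8.73 to 10.08 on day 30. The change of Hspa1a in int minus that in none was 5.29 ± 0.92 (adjusted p = 0.00484), and the change in none alone was -1.86 (adjusted p = 0.0869). In low cells Hspa1a was higher on day 30 (2.22 ± 0.63, adjusted p = 0.0404), and the int and low changes differed by 1.20 ± 0.92 (adjusted p = 0.939). For Hspa1b the int change exceeded that in none by 4.32 ± 1.01 (adjusted p = 0.0768). Of 19 fits without 1 array, 3 called this difference, those without day 10 none array 1, day 30 none array 5 or day 30 int array 4. The adjusted p over the 19 fits ran from 0.00194 to 0.218. It was lowest without int array 4, the 1 at the day 10 level. Of 21 heat-shock and stress genes these 2 were higher, 0 were lower and 19 were not called, with a median of 0.12 beside 0.02 over all genes. The share of all genes called higher in int was 0.347%. Dnajb1, the HSP40 partner of HSP70, read 5.68 to 5.80 on day 10 and 5.83 to 6.70 on day 30, groups that did not overlap, but was not called (0.49 ± 0.19, adjusted p = 0.256).

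Jun, a subunit of the AP-1 transcription factor and an immediate early gene, was higher on day 30 as well. It read 3.34, 3.83, 3.40 and 3.59 on day 10 and 7.20, 6.90, 6.13, 3.78 and 4.33 on day 30, with array 4 within the day 10 range and array 5 just above it. In low cells Jun stood at 0.26 and was not called, and the int change differed from none by 2.97 without a call (adjusted p = 0.13). The change of 2.13 ± 0.54 passed the threshold (adjusted p = 0.0457), and the call ended without any 1 of the 4 day 10 arrays or of day 30 arrays 1, 2 and 3 (adjusted p up to 0.151). Fos, its AP-1 partner, was not called in int (0.79 ± 0.35, adjusted p = 0.36) but was lower on day 30 in none (-1.54 ± 0.33, adjusted p = 0.00651). The difference of the Fos changes was 2.33 ± 0.48 (adjusted p = 0.0241). That call ended without any 1 of day 10 int arrays 2 and 4, day 30 int arrays 1 to 3, day 10 none arrays 2 to 4 or day 30 none array 2 (adjusted p up to 0.0842). Among 19 AP-1 and immediate early genes 1 was higher in int and 0 lower, and 0 were higher and 4 lower in none. Over all genes 0.347% were called higher and 0.365% lower in int, and 1.51% and 1.93% in none. In day 30 int array 4, which was low in these genes, Cd3e read 11.05, Thy1 10.60, Ptprc 11.04 and Cd4 9.32, the lowest Cd4 value of the 9 int arrays.

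**Figure D2:**
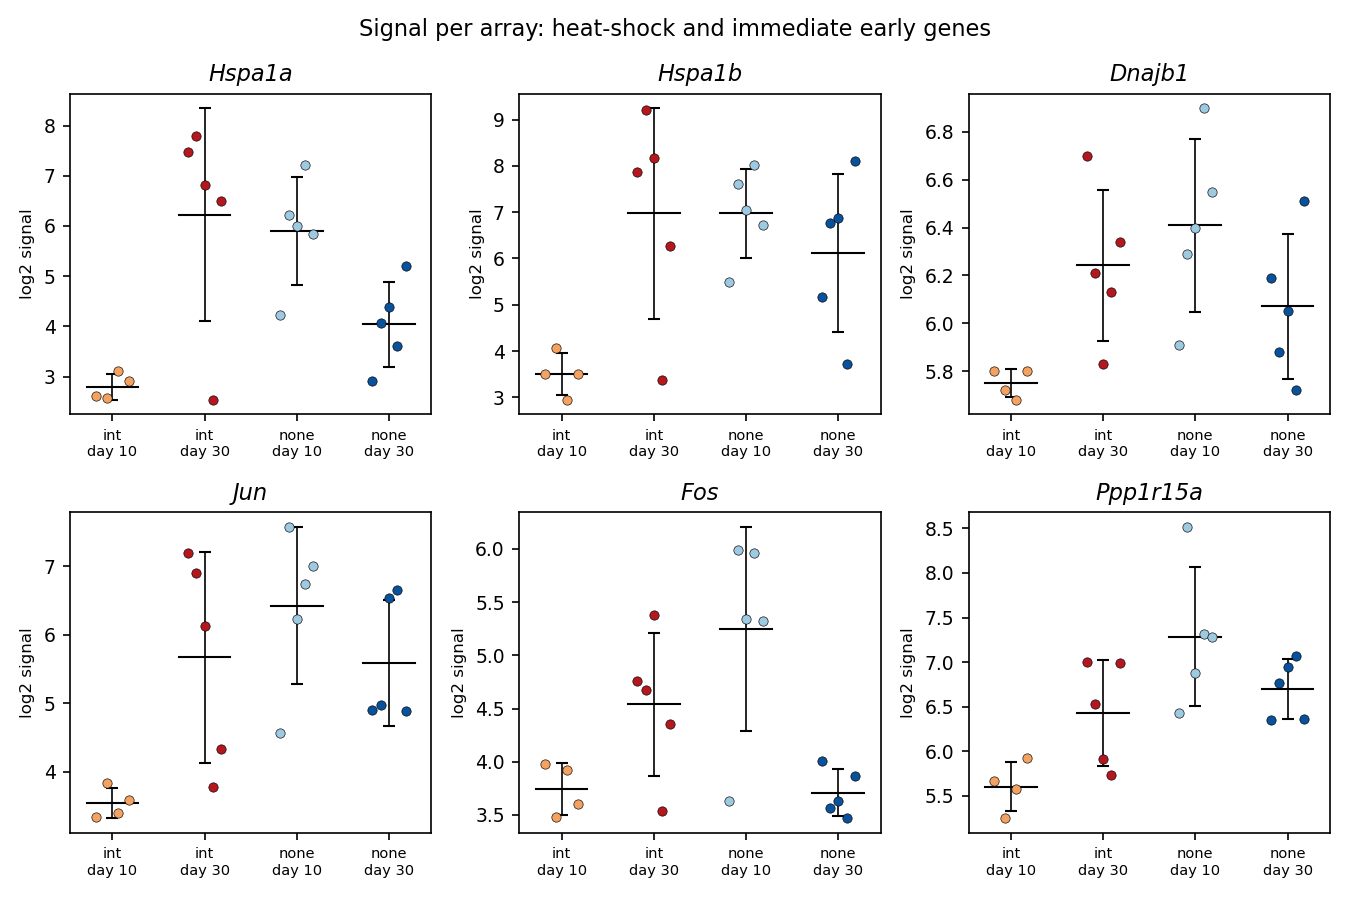
Log2 signal of 6 heat-shock and immediate early genes on each array of the int and none groups on day 10 and day 30, with the mean (bar) and SD (whiskers). Int arrays of day 10 are low and close together, and the int arrays of day 30 are spread, with 1 array (2.54 for Hspa1a) at the day 10 level.

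Among receptors and signalling genes, the lowest adjusted p belonged to a fall of Il6st, which encodes gp130, the chain that passes on the signals of IL-6 and IL-27. Il6st read 10.15, 9.64, 10.26 and 9.82 on day 10 and 9.04, 8.85, 8.75, 8.62 and 8.73 on day 30. The groups were apart, and the change was -1.17 ± 0.14 (adjusted p = 1.17e-06). In none cells Il6st read 9.30 to 9.97 on day 10 and 9.23 to 9.71 on day 30 (-0.10 ± 0.13). The int change differed from that in none by -1.07 ± 0.19 (adjusted p = 0.00484) and from that in low by -0.92 ± 0.19 (adjusted p = 0.0291). The difference from none kept its call with each of the 19 arrays left out. That from low ended with median centring (adjusted p = 0.068) and without any 1 of day 10 low arrays 2, 3 and 5, day 30 low array 4, day 10 int arrays 1 and 3 or day 30 int arrays 3 and 4 (adjusted p up to 0.124). Rgs10, which shortens signalling by G proteins, read 7.90, 7.87, 7.74 and 7.83 and then 7.29, 7.24, 6.89, 7.13 and 6.86 (-0.75 ± 0.14, adjusted p = 0.00234). Its values on the 2 days did not overlap, and its change also differed from none (-1.03 ± 0.19, adjusted p = 0.00484) and from low (-1.15 ± 0.19, adjusted p = 0.00107).

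Ddit4, a stress-induced inhibitor of the growth kinase mTORC1, had the largest fall among the called genes. It read 7.70, 7.68, 6.30 and 6.95 on day 10 and 4.91, 4.96, 4.95, 5.62 and 4.40 on day 30, without overlap (-2.19 ± 0.40, adjusted p = 0.00305). On day 30 the none arrays stood at 4.34 to 5.48, a range that holds 4 of the 5 int arrays. In none cells the Ddit4 change was -0.87 ± 0.38, and the difference of the changes was not called (-1.32 ± 0.55, adjusted p = 0.676).

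Bcl2l11 encodes BIM, which triggers death of T cells after repeated receptor stimulation or cytokine loss. Its arrays read 5.95, 6.61, 5.90 and 5.33 on day 10 and 4.70, 4.26, 4.65, 4.59 and 4.82 on day 30 (-1.34 ± 0.24, adjusted p = 0.00204), again without overlap. Bcl2l11 was lower in low cells too (-0.83 ± 0.22, adjusted p = 0.0296), while the none change of -0.27 was not called. Cblb, the ubiquitin ligase that raises the threshold for T cell activation and is linked to anergy, read 10.31, 10.30, 10.35 and 10.08 and then 9.55, 9.36, 9.34, 9.41 and 9.58 (-0.81 ± 0.13, adjusted p = 0.00137). Every day 30 array of Cblb stood below every day 10 array. Ltb, the membrane anchor of the lymphotoxin that shapes lymphoid tissue, read 9.58, 9.44, 9.54 and 9.19 and then 8.58, 8.15, 7.65, 8.35 and 8.75 (-1.14 ± 0.21, adjusted p = 0.00305). For Bcl2l11, Cblb and Ltb the difference from the none change was not called (-1.07 ± 0.33, -0.44 ± 0.18 and -0.59 ± 0.29, lowest adjusted p = 0.397). The calls of Il6st, Rgs10, Ddit4, Bcl2l11, Cblb and Ltb between the int days held with each int array left out.

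Satb1, a chromatin organizer of thymocytes and naive T cells, read 7.77, 7.24, 6.66 and 6.49 on day 10 and 6.09, 5.83, 5.54, 4.80 and 6.29 on day 30. Its groups did not overlap (-1.33 ± 0.26, adjusted p = 0.00472), and the call ended without day 10 array 1 (adjusted p = 0.0537). Satb1 was lower in low cells as well (-0.85 ± 0.24, adjusted p = 0.0411). Pde3b, which breaks down cyclic nucleotides, was lower by -1.57 ± 0.34 (adjusted p = 0.0117), a call that ended without day 10 array 1 or 2 or day 30 array 4 (adjusted p up to 0.0879). Actn1, an actin crosslinker, was lower by -1.14 ± 0.24 (adjusted p = 0.0105) and lost its call without day 10 array 1 (adjusted p = 0.0632). Zfp433, a zinc finger gene, fell by 1.61 on the log2 scale (adjusted p = 0.00204) and kept its call throughout. For Satb1, Pde3b, Actn1 and Zfp433 the difference from the none change was not called (-1.06, -1.26, -0.77 and -0.73, lowest adjusted p = 0.498).

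The lists below stand beside 0.712% of all genes called in int, 0.347% higher and 0.365% lower. Of 44 cytokine and cytokine receptor genes, 0 were higher, 3 lower and 41 not called, with a median of -0.18. Besides Ltb the lower ones were Il2rb, the chain shared by the IL-2 and IL-15 receptors (-0.75 ± 0.15, adjusted p = 0.00943), and Ifnar1, a chain of the type I interferon receptor (-0.83 ± 0.20, adjusted p = 0.0253). The Il2rb call ended without day 10 array 1 (adjusted p = 0.052), and that of Ifnar1 without any 1 of day 10 arrays 1 to 3 or day 30 arrays 1 and 3 (adjusted p up to 0.0998). Ifngr1, of the interferon gamma receptor, missed the threshold at -1.28 (adjusted p = 0.0538). Of 32 T cell receptor signalling genes only Themis was called, lower at -0.75 ± 0.16 (adjusted p = 0.0117), and not without day 10 array 4 or day 30 array 5 (adjusted p up to 0.0549). That list had a median of -0.16 in int, -0.29 in none and -0.30 in low cells. P2rx7, an ATP-gated channel of T cells, was the 1 called member of 30 chemokine and homing genes (-1.17 ± 0.26, adjusted p = 0.0158), with the call ending without day 10 array 3 or 4 or day 30 array 4 (adjusted p up to 0.0851). For P2rx7, Themis, Il2rb and Ifnar1 the difference from the none change was not called (-0.38, -0.36, -0.54 and -0.85, lowest adjusted p = 0.428).

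Genes that were higher on day 30 included granule and surface proteins of effector T cells and calcium-binding proteins. Gzmk, the granule protease granzyme K, read 6.06, 5.62, 6.99 and 7.69 on day 10 and 7.77, 8.41, 8.95, 8.68 and 7.70 on day 30. The lowest day 30 array stood just above the highest day 10 array, and the change was 1.71 ± 0.41 (adjusted p = 0.029). In none cells Gzmk read 4.24 to 6.18 and then 3.43 to 4.37, and the difference between the int and none changes was 2.73 ± 0.56 (adjusted p = 0.0222). The gap between int and none thus went from 1.63 on day 10 to 4.36 on day 30. Leaving out 1 of day 10 int arrays 1 and 2 or day 30 int arrays 2 to 4 ended the int call (adjusted p up to 0.172). The call of the difference ended without day 10 int array 1 or 2, day 30 int array 3, day 10 none array 4 or day 30 none array 5 (adjusted p up to 0.115).

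Crtam, a surface protein of cytotoxic CD4 cells, read 5.26, 5.27, 6.17 and 5.91 and then 6.46, 7.60, 7.43, 6.41 and 7.80, without overlap (1.49 ± 0.37, adjusted p = 0.0399). It lost its call without any day 10 array or without day 30 array 2, 3 or 5 (adjusted p up to 0.159). The Crtam change differed from that in none by 1.8 without a call (adjusted p = 0.305). Gzmk and Crtam were the 2 called members of 19 cytotoxic genes, of which 0 were lower and whose median was 0.11. Over all genes 0.347% were called higher and 0.365% lower. Nkg7, a granule membrane protein, stood at 0.80 (adjusted p = 0.213), Prf1, which encodes perforin, at 0.37, and Gzmb at -0.37, none of them called.

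Lgals1, the galectin that binds glycans on T cells, read 8.18, 8.29, 7.80 and 8.47 on day 10 and 9.41, 9.39, 9.57, 9.43 and 8.94 on day 30 (1.16 ± 0.25, adjusted p = 0.0105). All day 30 arrays stood above day 10, and the call ended without day 10 array 3 (adjusted p = 0.0742). The Lgals1 change differed from that in none by 0.71 without a call (adjusted p = 0.728). S100a13, a calcium-binding protein, read 7.77, 7.44, 7.03 and 8.19 and then 8.79, 8.60, 8.58, 8.66 and 8.68 (1.05 ± 0.20, adjusted p = 0.00392). The day 30 arrays were close together and above all day 10 arrays, and the call held with each array left out. In none cells S100a13 stood at 8.28 to 9.15 and then 8.34 to 9.01, so day 10 int cells were the lower ones there. The difference of the S100a13 changes was not called (0.97, adjusted p = 0.296).

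S100a4, a partner of myosin in cell movement, read 5.95, 7.38, 6.50 and 7.30 on day 10 and 7.70, 8.25, 9.30, 9.13 and 7.32 on day 30, with 1 day 30 array inside the day 10 range (1.56 ± 0.39, adjusted p = 0.0385). Anxa2, which links membranes to actin, read 5.51, 5.34, 5.03 and 6.16 and then 6.32, 6.73, 6.90, 6.92 and 6.69 (1.20 ± 0.29, adjusted p = 0.0356). Both calls depended on single arrays: S100a4 without day 10 array 1 or 3 or day 30 arrays 2, 3 or 4 (adjusted p up to 0.203), and Anxa2 without day 10 arrays 1 to 3 or day 30 arrays 2 to 5 (adjusted p up to 0.156). The S100a4 change differed from none by 2.28 ± 0.53 and from low by 2.23 ± 0.53, and neither was called (adjusted p = 0.0768 and 0.0939). Of 19 fits without 1 array, 1 called the difference from none (2.53, adjusted p = 0.0279). That fit left out day 30 int array 5, the array inside the day 10 range, and the others had adjusted p up to 0.253. For Anxa2 the difference from none was 1.61 and not called (adjusted p = 0.133). With each array centred on its median the calls of Jun, Crtam, S100a4 and Anxa2 ended (adjusted p = 0.0582, 0.0584, 0.0553 and 0.0528). At the dim end, Wnt3 read 2.50 to 2.70 on day 10 and 2.92 to 4.56 on day 30 (1.08 ± 0.20, adjusted p = 0.00392). Esm1, a secreted proteoglycan, was at 2.46 to 2.85 and then 3.14 to 3.70 (0.73 ± 0.12, adjusted p = 0.00137). Wnt3 and Esm1 kept their calls with each array left out, but such signals lie near the floor of the scale. For Wnt3 the difference from the none change was not called (0.88, adjusted p = 0.428).

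**Figure D3:**
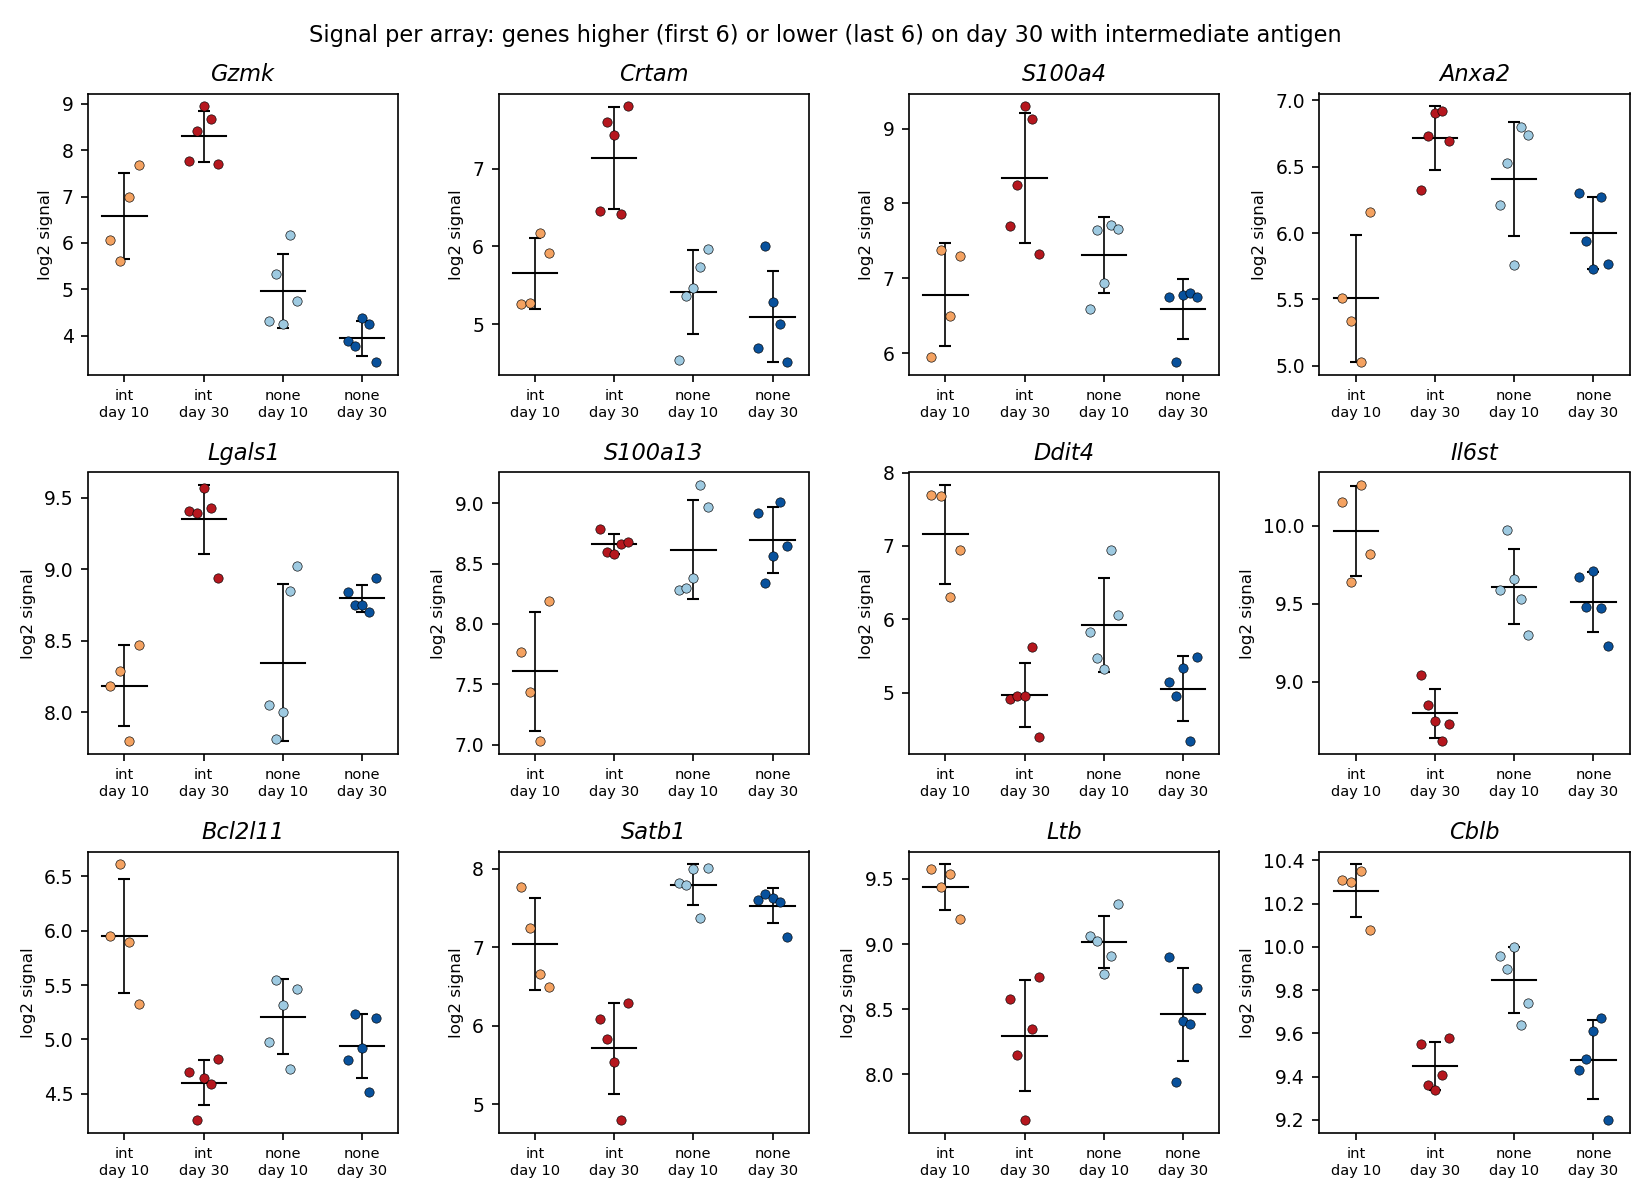
Log2 signal of 12 genes called between the int days on each array of the int and none groups, with the mean (bar) and SD (whiskers); the first 6 were higher and the last 6 lower on day 30. Il6st, Cblb and S100a13 show int groups with no overlap, while the none arrays of both days lie close together for Il6st and S100a13.

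The 28 genes of a list of the antigen response were not called between the int days. This list leaves out Jun, Hspa1a, Hspa1b, Top2a and Mki67, which belong to the same fixed set and are described elsewhere in the text. Of these, all but Mki67 were called in int, so the absence of calls holds only for the 28 that remain. Lag3, whose product binds MHC class II molecules and restrains T cells, read 8.84, 9.34, 9.57 and 9.10 on day 10 and 9.19, 9.28, 9.04, 9.21 and 9.37 on day 30. The groups overlapped fully, with a log2 fold change of 0.01 ± 0.45 (adjusted p = 0.998) and a 95% interval of -0.89 to 0.91. Pdcd1, which encodes PD-1, stood at 0.11 (interval -0.59 to 0.81), Ctla4 at 0.33, Tigit at 0.73 (adjusted p = 0.538) and Cd200 at -0.02. Of 19 inhibitory receptors 0 were called in either direction, beside 0.712% of all genes, with a median of 0.01. The interval of Tigit reached from -0.13 to 1.58, so the values do not show that levels were equal.

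Transcription factors of chronic stimulation were not called either. Tox, which sustains the exhausted state, read 8.32 to 8.77 on day 10 and 8.19 to 9.04 on day 30 (0.10, interval -0.34 to 0.53). Irf4, induced in proportion to receptor signal, stood at 0.20 (interval -0.41 to 0.81), and Egr2, a receptor-induced factor of anergy, at 0.18 (-0.44 to 0.80). Eomes stood at 0.51, Ikzf2, which encodes Helios, at -0.32, and Maf at 0.14. Maf was lower on day 30 in none cells (-1.85 ± 0.46, adjusted p = 0.0175), but the difference was not called (1.99 ± 0.67, adjusted p = 0.498). Of 20 such factors 0 were called in int, beside 0.712% of all genes. Nr4a1, the reporter gene of recent receptor signalling, read 8.24, 7.86, 9.06 and 8.24 and then 6.89, 8.02, 7.73, 7.84 and 7.91. Its day 30 arrays lay mostly lower, with overlap, and the log2 fold change of -0.67 (interval -1.27 to -0.08) did not pass after adjustment (adjusted p = 0.351). Of 28 genes induced early by the receptor 0 were called, beside 0.712% of all genes. Their median was -0.24 beside 0.02 over all genes.

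Il7r, the IL-7 receptor chain that supports resting and memory T cells, varied widely among replicates, at 7.58, 6.85, 5.97 and 4.59 on day 10 and 6.62, 6.31, 4.99, 7.76 and 5.88 on day 30. Its arrays overlapped throughout (0.06, interval -0.82 to 0.95), and all 9 stood below the none arrays, which read 9.92 to 10.66 and 10.13 to 10.44. Among cytokines, Ifng stood at 0.11, Il21 at 0.34, Il10 at -0.32 and Il2 at -0.79, and not one was called. Among lineage factors Tbx21, the Th1 regulator T-bet, stood at 0.00 and Foxp3, of regulatory T cells, at 0.29. The follicular helper genes Bcl6 (-0.70, adjusted p = 0.309) and Cxcr5 (-0.83 ± 0.26, adjusted p = 0.129) were not called, although Cxcr5 read 9.65 to 9.98 on day 10 and 8.83 to 9.07 on day 30 without overlap. Cxcr5 passed with only the int groups in the fit, with only genes of a mean of at least 5, and without 4 arrays that held transcripts of other cells (lowest adjusted p = 0.00262). Those 4 arrays were of other groups, so leaving them out kept the int change at -0.83 and altered only the estimate of spread. The homing genes Ccr7 (-0.82), S1pr1 (-0.06) and Klf2 (0.46) were not called.

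Int and none cells of the same day were also set side by side. Int and none differed in 276 genes on day 10 (1.24%), 174 higher in int (0.784%) and 102 lower (0.46%). On day 30 they differed in 491 genes (2.21%), 315 higher (1.42%) and 176 lower (0.794%). For Lag3 the gap between int and none was 4.12 on day 10 and 4.27 on day 30, for Irf4 2.82 and 2.84, for Egr2 1.82 and 1.89, and for Il7r -4.00 and -3.97. The gap of Nr4a1 was 2.79 and then 1.55, and that of Tigit 3.07 and then 4.23. For none of these 6 was the difference of the changes called. Some genes of the list were called in low cells. Lag3 was higher on day 30 in low (1.68 ± 0.42, adjusted p = 0.0191), as were Ifng (2.18, adjusted p = 0.000134) and Tigit (1.43, adjusted p = 0.0367), and Il7r was lower (-1.47, adjusted p = 0.0411). The test of int against low did not call these differences (-1.67 ± 0.61 for Lag3, adjusted p = 0.635; -2.07 ± 0.49 for Ifng, adjusted p = 0.0939).

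**Figure D4:**
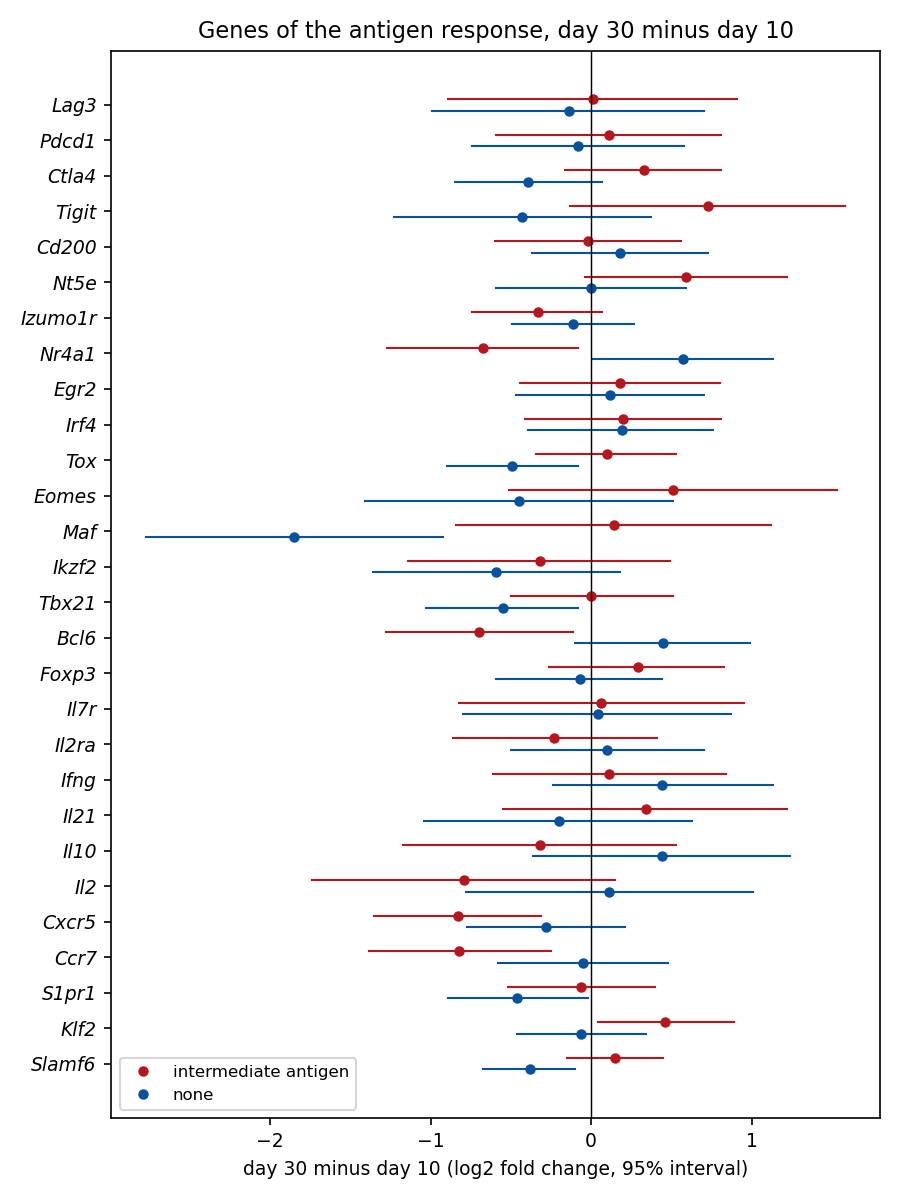
Log2 fold change from day 10 to day 30 with its 95% interval for 28 genes of the antigen response in int cells (red) and none cells (blue); the vertical line marks no change. Jun, Hspa1a, Hspa1b, Top2a and Mki67 of the same set are not shown. Int estimates lie between -0.83 (Cxcr5) and 0.73 (Tigit), and of the none estimates that of Maf (-1.85) stands farthest from 0.

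Other gene lists were read in the same way, beside the 0.712% of all genes called in int. Of 23 anergy-associated genes 1 was lower (Cblb), 0 were higher and 22 were not called, with a median of -0.28. Of 27 naive, memory and quiescence genes 0 were higher and 2 lower (Il6st and Satb1), with medians of -0.33 in int, -0.29 in none and -0.42 in low cells. Among 27 survival and death genes 0 were higher and 2 lower, Bcl2l11 and the signalling adaptor Traf2. Traf2 stood at -1.03 ± 0.26 (adjusted p = 0.0465) and lost its call without any 1 of day 10 arrays 1, 3 and 4 or day 30 arrays 1, 3 and 5 (adjusted p up to 0.225). Its difference from the none change was not called (-0.66, adjusted p = 0.78). Th1 genes (22 measured), Tfh genes (18), Treg and Tr1 genes (21) and interferon-stimulated genes (27) had 0 calls, with medians between 0.00 and 0.10.

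Top2a, a topoisomerase of dividing cells, was the 1 called member of 46 cell cycle genes. It read 5.05, 5.44, 5.05 and 5.76 on day 10 and 4.16, 4.83, 4.41, 4.13 and 4.05 on day 30, without overlap (-1.01 ± 0.21, adjusted p = 0.00953). Top2a was lower in none (-0.71) and low cells (-1.05), and its int call ended without day 10 array 4 (adjusted p = 0.0561). Mki67, the proliferation marker Ki-67, stood at -0.57 (adjusted p = 0.467), and the list median was -0.06 in all but the low cells (-0.11).

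Genes of oxidative phosphorylation had medians above that of all genes in every group. In int cells 3 of 34 were higher and 0 lower, with a median of 0.23 beside 0.29 in none and 0.26 in low cells, against 0.02 to 0.03 over all genes. The mean level of the list was 7.36 to 7.61 on the day 10 int arrays and 7.65 to 7.77 on the day 30 int arrays. Cox7a2, a subunit of cytochrome c oxidase, read 9.25, 9.25, 9.13 and 9.43 and then 10.00, 10.18, 10.09, 10.11 and 10.10, without overlap (0.83 ± 0.14, adjusted p = 0.00137), and was higher in none (0.71) and low (0.70) too. The calls of Ndufa2 (0.72, adjusted p = 0.042) and Cox4i1 (0.54, adjusted p = 0.0315) ended with median centring and with several single arrays left out. These arrays were day 10 arrays 1 and 3 and day 30 arrays 1, 3 and 5 for Ndufa2 (adjusted p up to 0.271) and day 10 arrays 1, 2 and 4 and day 30 arrays 3 and 5 for Cox4i1 (adjusted p up to 0.173). Of 37 ribosomal protein genes 1 was higher in int (Rpl13, 0.18 ± 0.04) and 5 in none, beside 0.347% and 1.51% of all genes. The Rpl13 call ended with quantile normalization, with centring and without any 1 of day 10 arrays 1 to 3 or day 30 arrays 2, 3 and 5 (adjusted p up to 0.134). Of 27 glycolysis and nutrient uptake genes the 1 called was Pkm, pyruvate kinase, which was lower (-0.61 ± 0.14, adjusted p = 0.0206), though not without day 10 arrays 3 or 4 or day 30 arrays 3 or 4 (adjusted p up to 0.128). For Pkm the difference from the none change was not called (-0.17, adjusted p = 0.928). Of 8 GIMAP genes, GTPases of lymphocytes, 1 was lower in int (Gimap6, -0.46 ± 0.10) and 3 in none, beside 0.365% and 1.93% of all genes. The Gimap6 call ended without day 10 array 1 or 3 or day 30 array 1 or 3 (adjusted p up to 0.108).

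**Figure D5:**
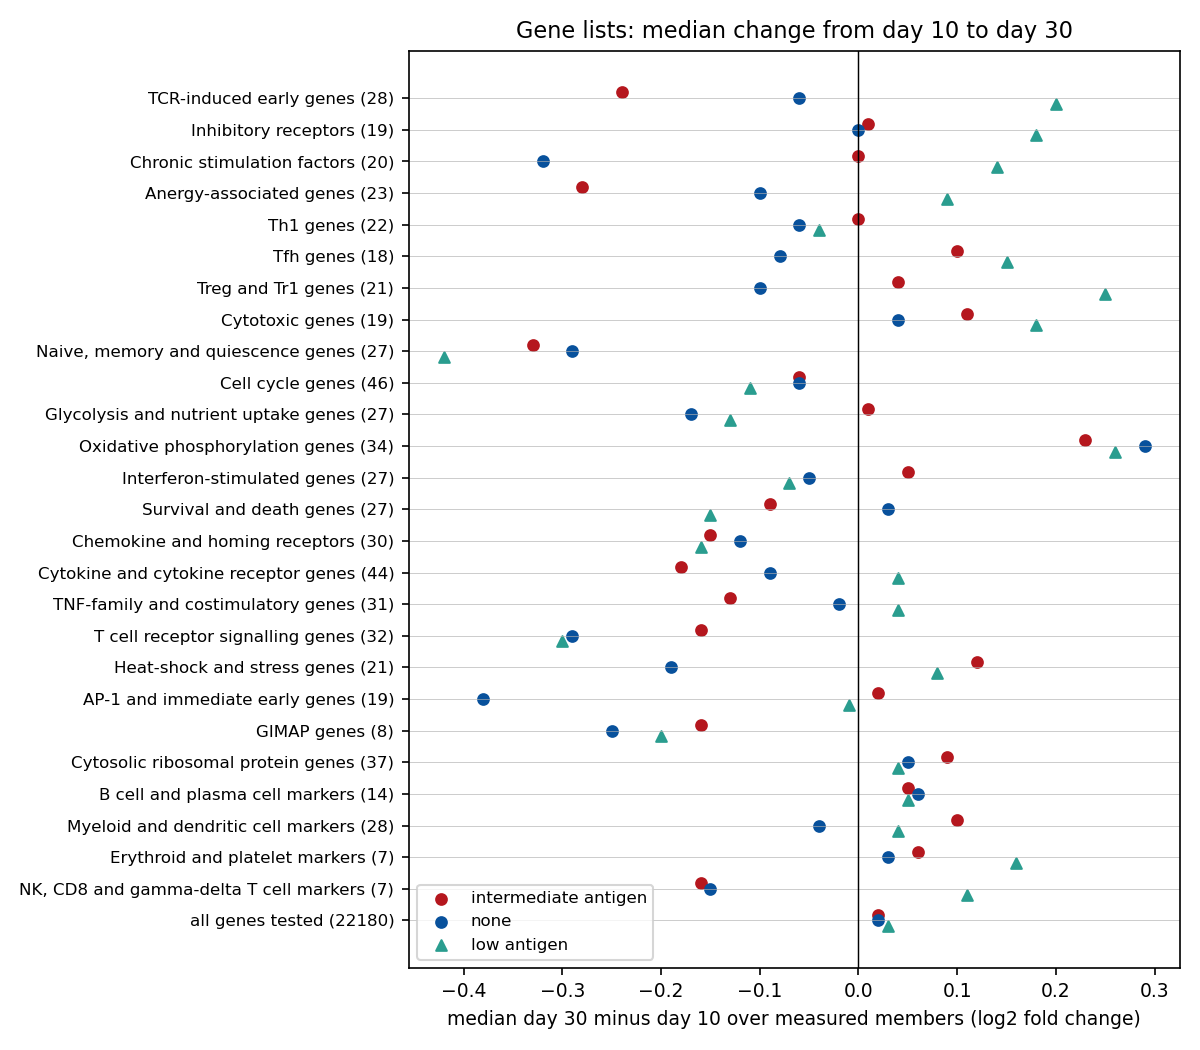
Median log2 fold change from day 10 to day 30 over the measured members of each gene list (number in brackets) in int, none and low cells. In int cells the medians lie between -0.33 (naive, memory and quiescence genes) and 0.23 (oxidative phosphorylation genes).

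A difference between int and none that is the same on both sort series cancels when the none change is subtracted from the int change. On this test 20 genes were called (0.0902%), 10 with a higher (0.0451%) and 10 with a lower value in int (0.0451%), and 16 of them differed by at least 2-fold. At an unadjusted p under 0.05 there were 1486. Beside Hspa1a, Gzmk, Fos, Il6st, Rgs10 and Esm1 (0.90 ± 0.17, adjusted p = 0.00601) they included genes called in none cells and not in int cells. Kcnma1, a calcium-activated potassium channel, read 12.23, 12.61, 12.60 and 12.50 and then 12.59, 12.43, 11.15, 12.01 and 12.57 in int. In none it read 12.44, 12.53, 12.56, 12.27 and 12.45 on day 10 and 10.69, 9.89, 10.03, 10.48 and 10.86 on day 30. The none groups were far apart (-2.06 ± 0.20, adjusted p = 3.25e-09), the int groups overlapped (-0.34 ± 0.21), and the difference was 1.72 ± 0.29 (adjusted p = 0.00475). Gabbr1, a GABA receptor subunit, was lower on day 30 in none (-1.67) and stood at 4.18 to 4.46 and 4.15 to 4.68 in int, with a difference of 1.82 ± 0.35 (adjusted p = 0.0097).

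Dapl1, a gene of naive and resting memory T cells, went apart in the other direction. It read 9.31, 8.31, 8.60 and 8.94 on day 10 and 8.05, 8.17, 8.08, 8.02 and 8.25 on day 30 in int (-0.68 ± 0.19, adjusted p = 0.0839). In none it read 9.64, 9.39, 9.53, 10.24 and 9.84 and then 10.59, 10.47, 10.29, 10.57 and 10.62 (0.78 ± 0.18, adjusted p = 0.0106). The int arrays ended below and the none arrays above their day 10 values, and the difference was -1.46 ± 0.26 (adjusted p = 0.00484). Dapl1 was lower on day 30 in low cells as well (-0.77 ± 0.18, adjusted p = 0.0115). Smc4, a condensin subunit, read 10.52 to 10.82 and then 10.10 to 10.58 in int (-0.38 ± 0.10, adjusted p = 0.0538) and was higher on day 30 in none (0.38 ± 0.09, adjusted p = 0.0178). The difference for Smc4 was -0.75 ± 0.14 (adjusted p = 0.00484), and on day 30 the ranges of the groups met, with none at 10.13 to 10.36. Spg20 (-1.32 ± 0.25) and Rabif (2.12 ± 0.39) were also called. Kcnma1, Gabbr1, Dapl1, Smc4, Spg20, Rabif, Hspa1a, Il6st, Rgs10 and Esm1 kept the call of this difference with each of the 19 arrays left out, and Kcnma1 lost it with the mean of all its probe sets (adjusted p = 0.0538). With only the int and none groups in the fit, Gzmk, Fos, Esm1, Spg20, Rgs10 and Smc4 were not called (adjusted p = 0.0664 to 0.0866), and without 4 arrays that held transcripts of other cells Gzmk and Fos were not (adjusted p = 0.0597 and 0.0849).

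Against low cells 18 genes differed in their change (0.0812%), 12 with a higher (0.0541%) and 6 with a lower value in int (0.0271%), and 1338 had an unadjusted p under 0.05. Without 1 array the count was 8 to 12 for day 10 low arrays 1, 2, 3 and 5 (11, 9, 11 and 11), day 30 low arrays 4 and 5 (9 and 11), day 10 int array 3 (10) and day 30 int arrays 3 and 4 (8 and 12). Mef2c, a transcription factor, stood at 3.33 to 3.74 and 3.44 to 4.32 in int and went from 3.17 to 3.51 up to 6.18 to 7.76 in low (difference -3.40 ± 0.29, adjusted p = 1.63e-10). Vim, the filament protein vimentin, read 6.78 to 7.19 and then 7.32 to 8.05 in int (0.73 ± 0.20, adjusted p = 0.0728) and was lower in low (-0.75 ± 0.19, adjusted p = 0.0205), with a difference of 1.48 ± 0.28 (adjusted p = 0.01). Crip1, a LIM domain protein, read 9.42 to 10.30 and then 10.40 to 10.98 in int (0.97 ± 0.21, adjusted p = 0.0139, a call that ended without day 10 array 1, 3 or 4 at up to 0.0831), and its change differed from that in low by 1.62 ± 0.29 (adjusted p = 0.00678). Flna, an actin crosslinker, was called too (1.36 ± 0.25, adjusted p = 0.00849). The calls of Mef2c, Vim, Crip1 and Flna against low held with each of the 19 arrays left out. These 4 genes lie outside the naming rule and were chosen after their values were seen. I730030J21Rik, an unnamed transcript that the rule also leaves out, was called in both differences (-3.93 ± 0.51 against none and -4.68 ± 0.51 against low). It read 6.60, 5.55, 6.24 and 6.12 and then 3.05, 3.26, 3.92, 5.00 and 4.91 in int, and it was higher on day 30 in none (1.83) and low cells (2.58).

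With only the int groups in the fit, the int calls of Jun, Gzmk, S100a4, Wnt3, Pde3b, Satb1, Top2a, Pkm, Ndufa2, Themis and Traf2 ended too (adjusted p = 0.0518 to 0.148). Other measures stood beside these results. Thy1 stood at -0.42 in int (adjusted p = 0.0728), and was lower on day 30 in none (-0.40, adjusted p = 0.0292) and in low (-0.43, adjusted p = 0.019). Cd3e stood at -0.37 in int (adjusted p = 0.177) and was lower on day 30 in none (-0.49, adjusted p = 0.0141). In none cells 2 of 28 myeloid markers were called lower on day 30, beside 1.93% of all genes. The mean level of the list in none was 3.64 to 3.95 on day 10 and 3.32 to 3.59 on day 30, while in int it was alike on both days. Beyond the fit without 4 arrays that held transcripts of other cells, their part in the differences between int and none was not tested.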

How the data were processed

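The series measured CD4 T cells on 43 single-colour arrays, of which 9 int, 10 none and 10 low arrays were compared here. The authors deposited 1 table of log2 signals for 41345 probe sets, normalized between arrays and rounded to 2 decimals before deposit, as judged from values of 1.46 to 13.87 and array medians of 3.28 to 3.44. The method of normalization is not given in the sources used here. RNA was amplified before labelling, per the labels' protocols, which can widen differences of scarce transcripts.

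A single gene symbol was listed for 23521 probe sets, which were used, while 1814 with several and 16010 without any were not. For the 1082 genes with several probe sets the one with the highest mean was taken. Linear models were fitted with limma 3.58.1 in R 4.3.3 to all 43 arrays with 1 mean per group and eBayes with a trend, and p-values were adjusted over 22180 genes (Benjamini-Hochberg, 0.05). The script was tested on simulated data. No array duplicated another, and the number of arrays limits the precision.

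Genes were named by rule: up to 15 called genes at each end of the int comparison, up to 10 at each end of the difference from none, up to 4 members of each of 26 lists, and a set of antigen response genes. Unnamed transcripts, receptor segments, small RNAs and histones were left out. Of 694 list members 636 were measured. The members and lists were chosen with earlier results of these data known. Alternatives covered normalization, centring, the variance prior, the arrays in the fit, a filter on dim genes, the probe set rule, array weights, a replicate block, 4 arrays with transcripts of other cells, and each array in turn.

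The titles give replicate numbers. Over 6069 genes the deviations of same-numbered int arrays from their group means correlated at -0.07 to 0.02, so the numbers do not pair the samples.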

Additional observations from a re-analysis of the deposited data

Results flagged for a closer look

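Of 180 groups of arrays examined for single values far from the rest, 7 int groups held one, and chance gives about 1 in 20. Hspa1a read 2.54 on day 30 array 4, with the other day 30 int arrays at 6.49 to 7.80. Lgals1 read 8.94 on day 30 array 5 against 9.39 to 9.57. Nr4a1 read 6.89 on day 30 array 1 against 7.73 to 8.02, and Mki67 read 5.07 on day 30 array 3 against 3.69 to 4.01. On day 10 Nt5e, the ectoenzyme CD73, read 7.89 on array 4 against 7.01 to 7.16. Il2ra read 4.80 on the same array against 5.12 to 5.16, and Il2 read 3.21 on day 10 array 3 against 4.08 to 4.24. No single array held more than 2 of these values.

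The change from day 10 to day 30 differed between int and none cells, by a test of the difference itself in limma, for 17 genes that the naming rule covers. Values of int minus none were positive for Hspa1a (5.29), Gzmk (2.73), Fos (2.33), Rabif (2.12), Gabbr1 (1.82), Kcnma1 (1.72), Nlrc3 (1.44), Piezo1 (1.22), Esm1 (0.90) and Tsen34 (0.86). They were negative for Atp1b1 (-1.68), Dapl1 (-1.46), Spg20 (-1.32), Olfr503 (-1.31), Il6st (-1.07), Rgs10 (-1.03) and Smc4 (-0.75). Of these, 11 kept the call with each of the 19 arrays left out. Gzmk, Fos, Nlrc3, Piezo1, Tsen34 and Atp1b1 lost it without 5, 9, 9, 10, 9 and 8 of the arrays. Against low cells the values of Il6st (-0.92) and Rgs10 (-1.15) were called as well.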

How the results depend on the processing

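The replicate block gave 167 calls for int, 727 for none, 633 for low, 25 for int minus none and 21 for int minus low, all within 1.5 times. Between the days, no int array, 1 of 5 none arrays and 2 of 5 low arrays correlated best with their own number. Pairing by number between doses of the same day was not tested. Counts moved by over 1.5 times in 10 of 50 settings: quantile normalization gave 385 for low and 10 for int minus low, fitting only the groups compared gave 353 for none and 10 for int minus none, a mean of at least 5 gave 381 for int, array weights gave 335 for int, 1341 for low and 38 for int minus low, and leaving out 4 arrays with transcripts of other cells (1 of them day 10 none array 4) gave 262 for int and 28 for int minus low. The 4 arrays included no int or low array, so leaving them out altered only the estimate of spread for int and low. Of the 158 int calls, 146 were shared with quantile normalization, 86 with only the groups compared, 137 with a mean of at least 5, and 158 both with array weights and without the 4 arrays. With 1 array left out the counts ran from 71 to 145 for int, 366 to 867 for none, 14 to 25 for int minus none, 281 to 709 for low and 8 to 26 for int minus low. The causes were not tested. Of 45 named int calls 12 held in every setting and left-out fit, as did 6 of 17 named differences from none, and no called value among them changed sign. Precision is limited by 4 and 5 arrays a group, signals near 2 to 3 lie at the dim end of the scale, and the sort series cannot be told apart from the day.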

Other observations

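Among the 35 int calls that held with each int array left out were genes that the naming rule does not cover, and those below were chosen after their values were seen. The small RNA Rpph1, the catalytic RNA of ribonuclease P, was lower on day 30 in int (-1.98 ± 0.20, adjusted p = 4.41e-08 in limma), none (-2.62) and low cells (-2.38). H4c12, a histone gene, was lower in int (-1.20 ± 0.20, adjusted p = 0.00137), none (-1.26) and low cells (-1.46). Fth1, the heavy chain of the iron store ferritin, was slightly higher in int (0.36 ± 0.06, adjusted p = 0.00137) and none cells (0.25).

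Other calls that held were these. Mios, a subunit of the GATOR complex that tells mTORC1 of amino acids, was lower in int (-1.04 ± 0.22, adjusted p = 0.00943) and stood at 0.06 in none and 0.01 in low cells. Rab1a and Copg2, which act in transport between the endoplasmic reticulum and the Golgi, were lower by -0.82 ± 0.15 (adjusted p = 0.00391) and -1.00 ± 0.21 (adjusted p = 0.00897), and Copg2 was lower in none cells too (-0.70). Smchd1, a repressor of chromatin (-0.81 ± 0.17, adjusted p = 0.00943), and Actr3, of the actin-branching ARP2/3 complex (-0.50 ± 0.10, adjusted p = 0.00814), were lower as well. For Mios the difference between the int and none changes was not called.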
